A study of Mus musculus with 9 samples.

Results

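Expression in eye tissue taken 3 months after an injected gel was set against the average of both other groups of the study, to find genes that marked the gel group and did not only separate the other groups from each other. The comparison covered 14086 genes of the 54532 in the deposited table, those with at least 1 FPKM (fragments scaled to gene length and to the library's mapped reads) in at least 3 of the 9 libraries. It used the 3 gel libraries, 3 libraries of untreated mice and 3 of mice with choroidal neovascularization (CNV). All mice were C57BL/6, and every sample was a flat mount of choroid and retina. The gel group had received BetP-Gel into the vitreous, and its sample titles read Betp-Gel@Ran, a gel given with ranibizumab. The treatment entry for this group names the gel without ranibizumab, and the labels do not say whether these mice had CNV. The titles of the CNV samples refer to wet AMD, the form of age-related macular degeneration in which vessels grow out of the choroid. No method of inducing CNV and no sampling time is given for the CNV and untreated mice, so drug, gel, injection, time and disease state cannot be told apart in the gel group. The labels do not tie the libraries of a group to different mice, so every p-value rests on the spread among these samples alone, and that spread may be technical.

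BetP stands for betamethasone phosphate in the published work on this gel. Betamethasone is a synthetic glucocorticoid, a ligand of the nuclear receptor Nr3c1, which raises transcription of genes such as Fkbp5 and Tsc22d3 and lowers many cytokine genes. Ranibizumab is an antibody fragment made to bind human vascular endothelial growth factor A, the chief signal for vessel growth in wet AMD. Under low oxygen, hypoxia-inducible factor (HIF) raises transcription of the growth factor gene together with genes of glycolysis, the pathway that turns glucose into pyruvate and lactate. The retina is known for a high rate of glycolysis even where oxygen is present.

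The libraries held 16990118 to 18753737 reads on genes, recovered from the FPKM values, and the gel libraries lay between 16990118 and 17423121. Libraries of a group correlated across genes with r of 0.981 to 0.990. The first principal component, with 58.6% of the variance, placed the gel libraries at -1.63 to 7.31, between the other groups. Untreated libraries lay at -39.7 to -38.1 on it and CNV libraries at 26.1 to 44.2. The second, with 17.9% of the variance, placed the gel libraries at 18.8 to 26.9 and the other 6 at -20.3 to -0.0159. Markers of the labelled tissue were present, with the pigment epithelium enzyme gene Rpe65 at 58.3 to 112 FPKM and the summed FPKM of 24 rod photoreceptor genes at 2548 to 7384. Genes of tissue outside choroid and retina were present too: 17 corneal epithelium genes summed to 12100 to 27610 FPKM and 21 skeletal muscle genes to 1163 to 7379 FPKM. In bulk tissue, fewer cells of a type and less RNA per cell cannot be told apart.

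Against the average of the other groups, 956 genes were higher in the gel libraries (6.79% of those tested) and 1110 were lower (7.88%), by limma with p-values adjusted by the Benjamini-Hochberg method over all 14086 genes, as for every adjusted p here. Most differences were small. On the log2(FPKM + 1) scale, on which all differences are given and which understates those of low genes, 17 genes were higher and 57 lower by at least 1. The split depended on scaling: 46.3% of called genes were higher, against 58.1% after quantile normalization and 61.4% with each library divided by its FPKM sum. The count also depended on single libraries. Without gel replicate 1, 2 or 3, 414, 234 and 107 genes were called higher and 785, 344 and 221 lower. Without CNV replicate 1 the counts were 552 and 686, without untreated replicate 1 they were 717 and 692, and without untreated replicate 2 they were 604 and 723. Of 105 called genes followed through these omissions, 38 were called without each library in turn and 64 were not called without gel replicate 3. With the other 6 libraries taken as 1 group, whose spread then holds the difference between untreated and CNV, limma called 0 genes, and 1174 higher and 1065 lower had an unadjusted p under 0.05.

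A gene can be called against an average without standing apart from both groups, so the called genes were sorted by where the gel libraries lay. In 551 of the genes called higher (3.91% of all tested) every gel library lay above all 6 others, and in 438 of those called lower (3.11%) every gel library lay below them. In 377 called genes, 83 higher and 294 lower, the gel mean lay between the untreated and CNV means. The other 700 had a gel mean outside both with overlapping libraries. A joint test that asks each gene to differ from untreated and from CNV in the same direction, adjusted over all genes, called 0 genes higher and 1 lower (0.0071%), while its unadjusted p was under 0.05 for 593 and 502 genes. Taken 1 at a time, gel against untreated called 2265 genes higher (16.1%) and 2548 lower (18.1%), and gel against CNV 818 higher (5.81%) and 1165 lower (8.27%). CNV itself differed from untreated in 3166 genes higher (22.5%) and 3115 lower (22.1%). Called in both gel comparisons were 167 genes higher (1.19%) and 140 lower (0.994%). That pair of calls does not control the error rate of the combination, and it moved with scaling and with single libraries. It held for 286 genes higher and 118 lower after quantile normalization, and for 129 and 58 with division by the FPKM sum. It held for 22 genes higher and 30 lower without CNV replicate 1, for 24 and 31 without CNV replicate 2, and for 450 and 280 without CNV replicate 3. Without gel replicate 1, 2 or 3 it held for 59, 26 and 22 higher and 156, 23 and 34 lower, and without untreated replicate 1 or 2 for 104 and 87 higher and 72 and 80 lower. Genes below other than the jointly called one, and the lists singled out, were chosen after their values were seen.

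The gene called by the joint test was Fhl3 (ENSMUSG00000032643, mm10 chromosome 4, 124700701 to 124708611, plus strand), which codes for a LIM-domain protein of muscle and other cells that binds actin and transcription factors. Its FPKM was 15.5, 16.5 and 15.5 in untreated libraries, 9.96, 9.92 and 8.0 in CNV libraries and 4.31, 3.26 and 3.18 in gel libraries. The 3 groups did not overlap, with CNV below untreated and gel below CNV. The difference was -1.53 ± 0.10 (SE, n = 3 per group; limma adjusted p = 0.000129), and the joint test gave an adjusted p = 0.0249 (limma). The pairwise differences were -1.88 to untreated and -1.17 to CNV. The call in the comparison with the average held without each library in turn. The joint test called 0 genes lower without any 1 untreated library, without CNV replicate 1 or 2 and without gel replicate 2 or 3. It called 2 lower without gel replicate 1, and 37 higher and 12 lower without CNV replicate 3.

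**Figure D1:**
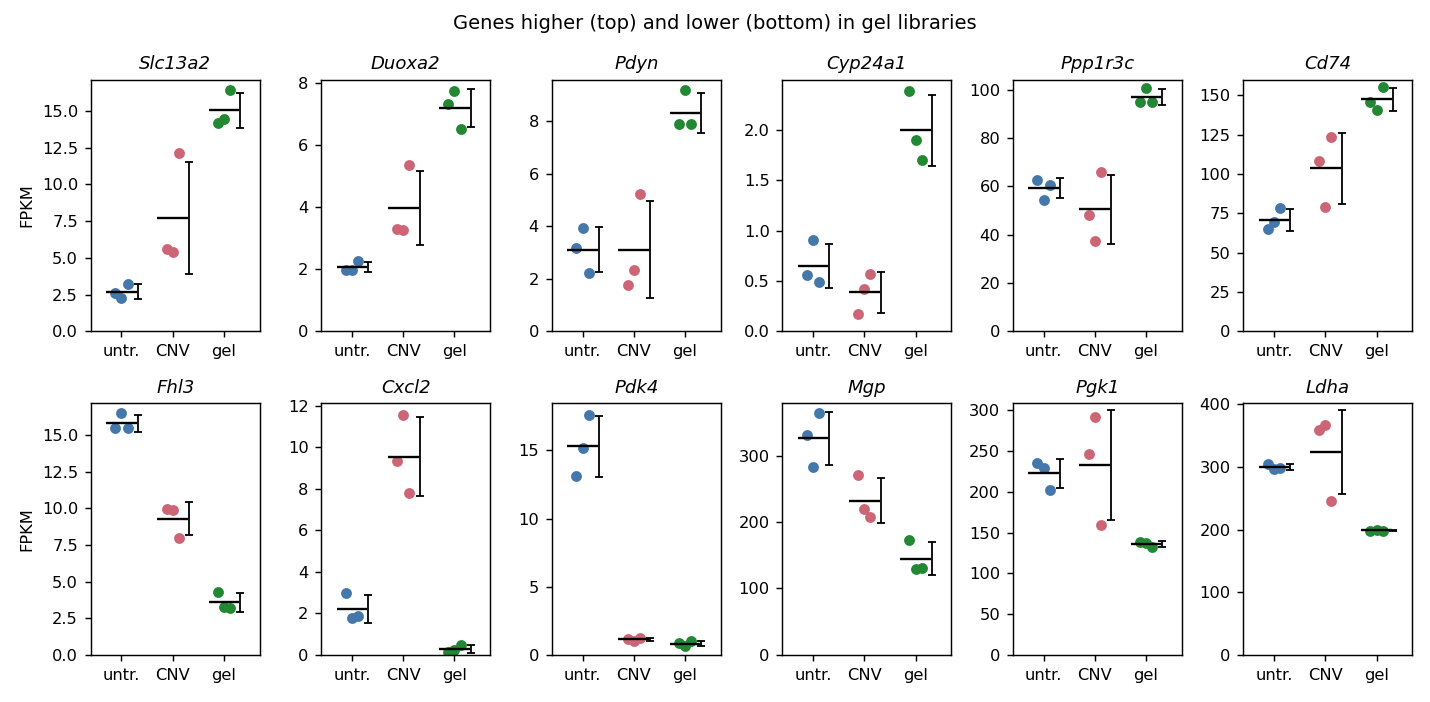
FPKM of 6 genes higher and 6 lower in gel libraries, on a linear axis from 0. Each point is a library, the long bar the group mean and the offset bar its SD (n = 3); in each panel all 3 gel points lie beyond the 6 others, as for Fhl3 at 3.18 to 4.31 against 8.0 to 16.5 FPKM.

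Slc13a2, Cyp24a1, Cyp26b1 and Fxyd4 were higher in gel libraries against untreated and against CNV, each called by limma in both comparisons. Slc13a2, a sodium-coupled carrier of citrate and other dicarboxylates, had 2.64, 2.24 and 3.24 FPKM in untreated, 5.63, 5.39 and 12.1 in CNV and 14.2, 14.5 and 16.4 in gel libraries. The gel libraries were the highest, and CNV replicate 3 lay nearer to them than the other CNV libraries did. The difference from the average was 1.54 ± 0.21 (SE; limma adjusted p = 0.00519), a 2.91-fold ratio of FPKM + 1. Cyp24a1, the enzyme that inactivates vitamin D, stood at 0.487 to 0.902 FPKM in untreated, 0.170 to 0.572 in CNV and 1.70 to 2.39 in gel libraries (0.99 ± 0.13, limma adjusted p = 0.00422). Cyp26b1, which breaks down retinoic acid, had 4.72 to 5.66 FPKM in untreated, 3.65 to 7.76 in CNV and 9.13 to 10.4 in gel libraries (0.84 ± 0.17, limma adjusted p = 0.0166). Both enzymes therefore had no overlap between gel and the other libraries. Cyp26b1 was not called without gel replicate 2 (limma adjusted p = 0.0503) or 3 (0.0762). Fxyd4, a regulator of the sodium pump, had 3.07 to 4.30 FPKM in gel libraries and at most 2.11 in the others (0.90 ± 0.12, limma adjusted p = 0.00481).

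Duoxa2 codes for the maturation factor of the hydrogen peroxide producing oxidase Duox2. Its FPKM was 1.96, 1.98 and 2.26 in untreated, 3.30, 3.26 and 5.36 in CNV and 7.31, 7.73 and 6.51 in gel libraries. All gel values lay above all others, and CNV lay above untreated (1.08 ± 0.13, limma adjusted p = 0.0028). Duox2 itself, its neighbour in function and in the genome, had 1.75 to 2.14 FPKM in gel libraries against 0.246 to 1.59 in the others (0.86 ± 0.16, limma adjusted p = 0.0127). Duox2 was not called without gel replicate 2 (limma adjusted p = 0.0542) or 3 (0.0601). Pdyn, the precursor of the opioid peptides called dynorphins, stood at 7.89, 9.19 and 7.89 FPKM in gel libraries. Untreated libraries held 2.21 to 3.92 FPKM of it and CNV libraries 1.77 to 5.22, so the gel libraries lay above all others (1.24 ± 0.24, limma adjusted p = 0.0153). Pdyn was not called without gel replicate 2 (limma adjusted p = 0.0617) or 3 (0.0636).

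Dsp, Myo6, Emx2 and Ppp1r3c were higher by less. Dsp, the desmosome protein desmoplakin, had 138 to 161 FPKM in untreated, 149 to 187 in CNV and 239 to 246 in gel libraries (0.63 ± 0.09, limma adjusted p = 0.00461). The unconventional myosin gene Myo6 had 19.5 to 22.1 FPKM in gel libraries and 10.9 to 14.8 in the others (0.65 ± 0.10, limma adjusted p = 0.00612). Emx2, a homeobox transcription factor, had 12.5 to 13.8 FPKM against 6.17 to 9.97 (0.76 ± 0.12, limma adjusted p = 0.00782). For each of these the call held without every library in turn and the gel libraries did not overlap the rest. Ppp1r3c, which targets a phosphatase to glycogen and so favours glycogen storage, had 94.9, 100.9 and 95.0 FPKM in gel libraries. It stood at 54.5 to 62.6 FPKM in untreated and 37.2 to 65.8 in CNV libraries (0.83 ± 0.15, limma adjusted p = 0.011, and 0.0522 without gel replicate 3).

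The largest fall among genes called in both pairwise comparisons was in Cxcl2 (chromosome 5, 90903871 to 90905938), a chemokine that attracts neutrophils. Its FPKM was 2.99, 1.77 and 1.89 in untreated, 9.32, 11.5 and 7.78 in CNV and 0.138, 0.241 and 0.484 in gel libraries. CNV libraries were the highest and gel libraries the lowest, with no overlap among the 3 groups. The difference from the average was -2.17 ± 0.15 (limma adjusted p = 0.000216), and those from untreated and CNV were -1.31 and -3.03. Lrg1, a secreted glycoprotein known to promote vessel growth in the retina, followed the same order, with 1.26 to 1.58 FPKM in gel, 2.59 to 3.70 in untreated and 3.62 to 8.22 in CNV libraries (-1.09 ± 0.19, limma adjusted p = 0.0106, and 0.0529 without gel replicate 3). Krt18, a keratin of simple epithelia, had 28.5 to 30.5, 35.3 to 45.6 and 57.8 to 70.7 FPKM in that order of groups (-0.77 ± 0.09, limma adjusted p = 0.00299).

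Other lower genes had their highest level in untreated libraries, or like levels in both other groups. Mgp, an inhibitor of calcification made by cells of the outflow pathway and vessel wall, had 283 to 363 FPKM in untreated, 207 to 270 in CNV and 130 to 173 in gel libraries (-0.93 ± 0.13, limma adjusted p = 0.00498). Pttg1, the mitotic inhibitor securin, had 20.5 to 20.7, 5.68 to 9.17 and 4.04 to 5.48 FPKM in that order (-1.25 ± 0.13, limma adjusted p = 0.00217). Gel libraries were lowest for both. Pdlim7, a scaffold of the actin cytoskeleton, had 12.1 to 12.5, 7.63 to 13 and 4.82 to 6.06 FPKM (-0.95 ± 0.14, limma adjusted p = 0.00639). Htra1, a secreted protease whose gene region is linked to risk of AMD in people, had 33.6 to 39.8, 27.0 to 39.8 and 21.1 to 23.9 FPKM (-0.67 ± 0.12, limma adjusted p = 0.011). Both therefore had gel libraries below all others, and Htra1 was not called without gel replicate 3 (limma adjusted p = 0.0601).

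Genes of glycolysis and the hypoxia response were lower as a group. Of 26 tested rows for 25 such genes, 12 were lower and 1, Egln3, was higher, against 7.88% and 6.79% of all genes, and the median difference was -0.49 against -0.02 over all genes. Egln3, an oxygen sensor that marks HIF for degradation, was not called without any 1 gel library, untreated replicate 2 or 3, or CNV replicate 1 or 2 (limma adjusted p = 0.054 to 0.116). The median difference was -0.63 to untreated and -0.32 to CNV, and 3 of the 26 rows were called lower in both pairwise comparisons. Over all genes, 438 of the 1110 called lower had every gel library below the 6 others. That held for 6 of the 12 here: Pgk1, Ldha, Tpi1, Pgam1, Slc16a3 and Ddit4. The starts of 3 of these genes are shown here because members of the group moved together and because ACGTG is a form of the site that HIF binds. Capitals below mark ACGTG and its reverse complement CACGT, and other forms of the site were not searched. The windows run from 250 bases before to 50 after a RefSeq transcription start of build GRCm38.p6, 5′ to 3′ on the gene's strand. They cover chrX:106186850-106187149 (plus) for Pgk1, chr7:46845554-46845853 (plus) for Ldha and chr10:59951721-59952020 (minus) for Ddit4.
Pgk1: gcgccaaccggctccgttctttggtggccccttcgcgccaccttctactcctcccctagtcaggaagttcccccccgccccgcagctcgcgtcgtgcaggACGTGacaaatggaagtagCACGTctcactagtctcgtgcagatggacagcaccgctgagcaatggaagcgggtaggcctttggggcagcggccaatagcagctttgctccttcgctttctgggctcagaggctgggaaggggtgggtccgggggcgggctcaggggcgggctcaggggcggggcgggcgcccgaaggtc
Ldha: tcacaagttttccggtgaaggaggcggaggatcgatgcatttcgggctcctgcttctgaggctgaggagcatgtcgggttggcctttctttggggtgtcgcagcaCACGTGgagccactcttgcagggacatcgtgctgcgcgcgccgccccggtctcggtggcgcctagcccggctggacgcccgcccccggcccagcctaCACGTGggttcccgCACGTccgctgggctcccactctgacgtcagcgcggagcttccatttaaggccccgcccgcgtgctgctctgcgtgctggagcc
Ddit4: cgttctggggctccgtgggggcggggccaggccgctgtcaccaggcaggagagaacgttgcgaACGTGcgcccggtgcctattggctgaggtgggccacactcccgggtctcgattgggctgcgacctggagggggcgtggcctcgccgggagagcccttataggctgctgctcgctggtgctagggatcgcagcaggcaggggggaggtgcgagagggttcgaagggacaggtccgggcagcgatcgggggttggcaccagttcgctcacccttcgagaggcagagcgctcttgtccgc
Pgk1 held 2 such stretches, Ldha 3 and Ddit4 1. In Ldha, 2 of the 3 read CACGTG, which is also the palindrome called an E-box, and a further Ldha start in the table held none. With the first listed start of each gene, ACGTG or CACGT stood in 14 of 25 group members (56.0%), in 8 of the 13 called ones, in 25.4% of the 10160 tested genes matched by symbol and in 19.7% of all 27025 windows. The group was listed by function, so its share against that of all genes does not depend on the calls. Called members, among them Egln3, which was higher, had a share of 61.5%, near the 56.0% of the group. A match describes the letters and is no measurement of binding.

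Pgk1, the phosphoglycerate kinase that makes ATP in glycolysis, had 235, 230 and 202 FPKM in untreated, 246, 292 and 159 in CNV and 138, 137 and 132 in gel libraries (-0.72 ± 0.16, limma adjusted p = 0.0228). Ldha, the lactate dehydrogenase subunit that favours lactate, had 305, 296 and 298, then 358, 367 and 246, then 198, 200 and 198 FPKM (-0.63 ± 0.12, limma adjusted p = 0.0136). The gel libraries of both genes were close together and below all others, and CNV replicate 3 was the lowest of its group. Ddit4, an inhibitor of the growth kinase mTOR that low oxygen and glucocorticoids both raise, had 42.2 to 54.0 FPKM in untreated, 36.4 to 62.5 in CNV and 24.8 to 28.6 in gel libraries (-0.82 ± 0.15, limma adjusted p = 0.0124). The lactate exporter gene Slc16a3 stood at 3.90 to 4.62, 3.72 to 11.7 and 1.85 to 2.07 FPKM (-1.20 ± 0.26, limma adjusted p = 0.0225), and was not called without any 1 gel library (limma adjusted p = 0.0549 to 0.0867). Pgk1, Ldha and Ddit4 were not called without gel replicate 2 (limma adjusted p = 0.0733, 0.0506 and 0.0525) or 3 (0.0924, 0.0658 and 0.0601), and Pgk1 not without gel replicate 1 (0.0568). Tpi1 was not called without gel replicate 3 (limma adjusted p = 0.0798), and Pgam1 was not called without any 1 gel library, untreated replicate 1 or 2, or CNV replicate 1 (limma adjusted p = 0.0627 to 0.119). Neither was called after quantile normalization. Pgam1 was also lost with division by the FPKM sum, without the filter on low values and with the length trend removed.

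Other members differed from untreated far more than from CNV. Aldoa, an aldolase abundant in muscle, had 708 to 853 FPKM in untreated, 320 to 357 in CNV and 304 to 336 in gel libraries (-0.68 ± 0.08, limma adjusted p = 0.00308), with overlap between gel and CNV. Another tested row carried the same symbol and was not called, with differences up to 0.14 among the alternatives. The muscle form of phosphofructokinase, Pfkm, had 73.4 to 87.7, 15.6 to 21.8 and 24.2 to 27.3 FPKM, so that gel lay between the others (-0.56 ± 0.11, limma adjusted p = 0.0134, 0.0515 without gel replicate 2 and 0.0699 without 3). The 21 skeletal muscle genes summed to 6720 to 7379 FPKM in untreated, 1163 to 1996 in CNV and 1714 to 2038 in gel libraries, and the part of muscle in these results was not tested. The count of 12 lower members became 7, 2 and 1 without gel replicates 1, 2 and 3, while the median stayed between -0.51 and -0.47. It was 9 to 17 without each untreated or CNV library, with medians of -0.55 to -0.42. Many glycolytic genes have processed copies in the genome, and Gapdh, which has very many, was listed at only 0.870 to 2.61 FPKM in all libraries but 1 (CNV replicate 2, at 31.6), so counts of such genes are uncertain.

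Genes for the mitochondrial respiratory chain were lower as a group. Of 73 nuclear genes for subunits of the respiratory complexes and ATP synthase, 39 (53.4%) were lower and none higher, against 7.88% and 6.79% of all genes. A negative difference was seen in 72, and the median was -0.30. Their summed FPKM was 10650 to 11610 in untreated, 9059 to 9627 in CNV and 7910 to 8695 in gel libraries, with no overlap. The step was larger against untreated (median -0.49) than against CNV (median -0.15), and 3 of the 73 were called lower in both pairwise comparisons. In 15 of the 39 genes every gel library was below the 6 others, a share near that over all genes, 438 of the 1110 called lower. Cyc1, the cytochrome c1 subunit of complex III, had 97.1 to 105 FPKM in untreated, 63.4 to 67.4 in CNV and 55.1 to 57.6 in gel libraries (-0.51 ± 0.06, limma adjusted p = 0.00269). Atp5g3, a subunit of the rotor of ATP synthase, had 189 to 195, 136 to 138 and 106 to 125 FPKM (-0.51 ± 0.07, limma adjusted p = 0.00433). Both kept the order untreated, CNV, gel without overlap, and their calls held without each library in turn. The count of 39 was 37, 15 and 10 without gel replicates 1, 2 and 3, and 28 to 43 without each of the others. Quantile normalization gave 25 and division by the FPKM sum 26, with negative medians.

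The 13 protein genes of the mitochondrial genome did not share this: 1, mt-Nd3, was lower, and their median was 0.15. The gel mean of mt-Nd3 lay between the other groups (-0.71 ± 0.17, limma adjusted p = 0.0271), and it was not called without gel replicate 1 or 2 or CNV replicate 1 (limma adjusted p = 0.0547 to 0.0855). Genes of the proteasome, the protease complex that degrades ubiquitin-tagged proteins, had 8 of 31 members lower and none higher, with a median of -0.20. The share lower was 25.8%, against 7.88% of all genes, and none of the 31 was called lower in both pairwise comparisons. In all 8 every gel library lay below the 6 others, as in Psmb7 with 24.7 to 25.1 FPKM against 28.7 to 39.9 (-0.36 ± 0.08, limma adjusted p = 0.0193). Psmb7 was not called without any single gel library (limma adjusted p = 0.0537 to 0.0814), and the group count was 5 without gel replicate 1 and 0 without replicate 2 or 3. It was 4 without CNV replicate 1, 5 without untreated replicate 1 and 14 without CNV replicate 3. Quantile normalization gave 5, division by the FPKM sum 3 and no filter 3, while a filter of 5 FPKM gave 14. The 78 genes for cytosolic ribosomal proteins had a median of -0.06, against 0.04 after quantile normalization.

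**Figure D2:**
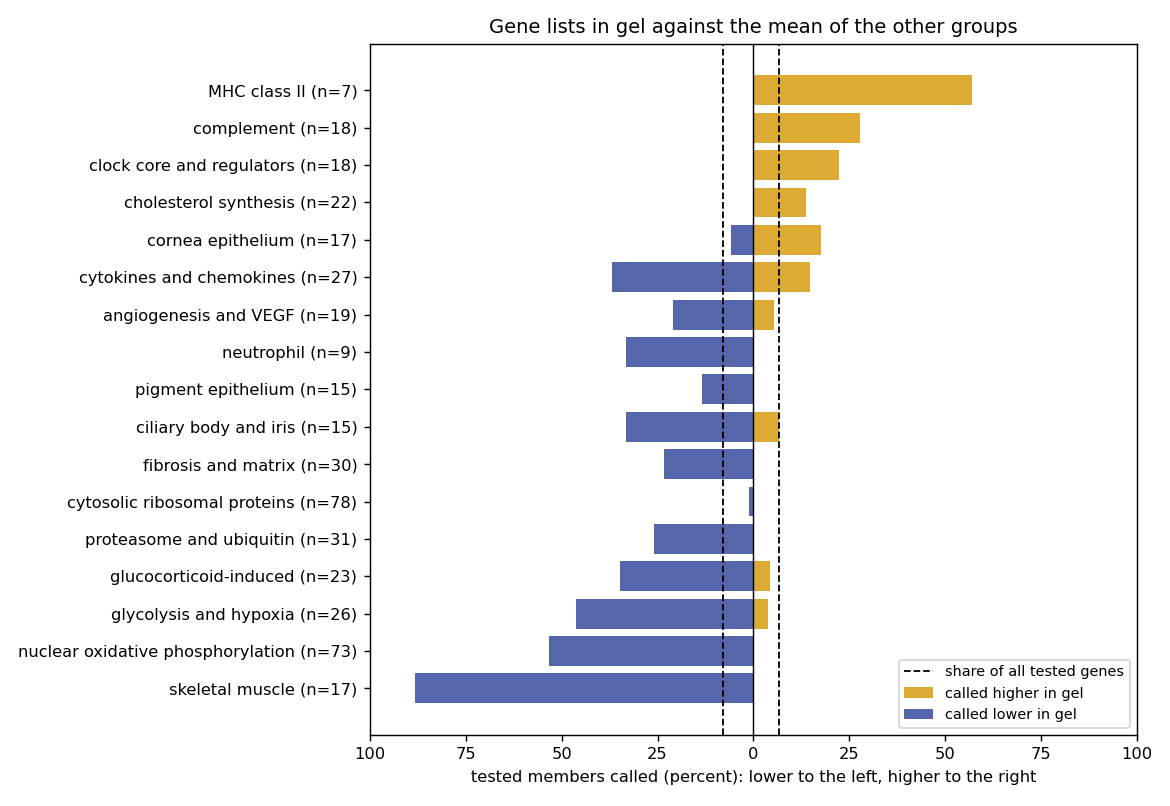
Share of tested members of 17 gene lists called higher (right) or lower (left) in gel libraries against the average of the others, in percent. Dashed lines mark the shares over all genes, 6.79% and 7.88%, and the lists of skeletal muscle, respiratory chain and glycolysis reach furthest to the left.

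Gene length moved with these results. In the shortest of 5 equal classes of genes by deposited length the median difference was -0.10, with 2.2% called higher and 11.1% lower. In the longest class it was 0.08, with 14.7% higher and 1.81% lower. The deviation of a library from the gene mean had a median of -0.105 to -0.035 in the shortest class for gel libraries and -0.006 to 0.077 for the other 6. In the longest class it was 0.041 to 0.068 for gel libraries, 0.001 to 0.023 for CNV and -0.106 to -0.058 for untreated. There CNV lay nearer to gel than to untreated. The median length was 6137 bases for genes called higher, 2564.5 for those called lower and 3747 over all genes. With the trend on length removed from each library, 768 genes were higher (5.45%) and 833 lower (5.91%), of which 647 and 725 were also called without that step. Glycolysis and hypoxia genes then had 12 of 26 lower, respiratory chain genes 28 of 73 and proteasome genes 3 of 31. GC content, the percent of G and C letters in a gene's longest transcript, moved with the calls too. In the lowest of 5 classes by GC content 8.88% were called higher and 3.8% lower, and in the highest 4.23% and 12.1%. With the length trend removed, the highest class still had 4.16% higher and 8.21% lower. With both trends removed, 789 genes were higher and 803 lower, and 10 of the 105 called genes followed were not called. Whether RNA quality or fragment selection differed between the groups was not tested.

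**Figure D3:**
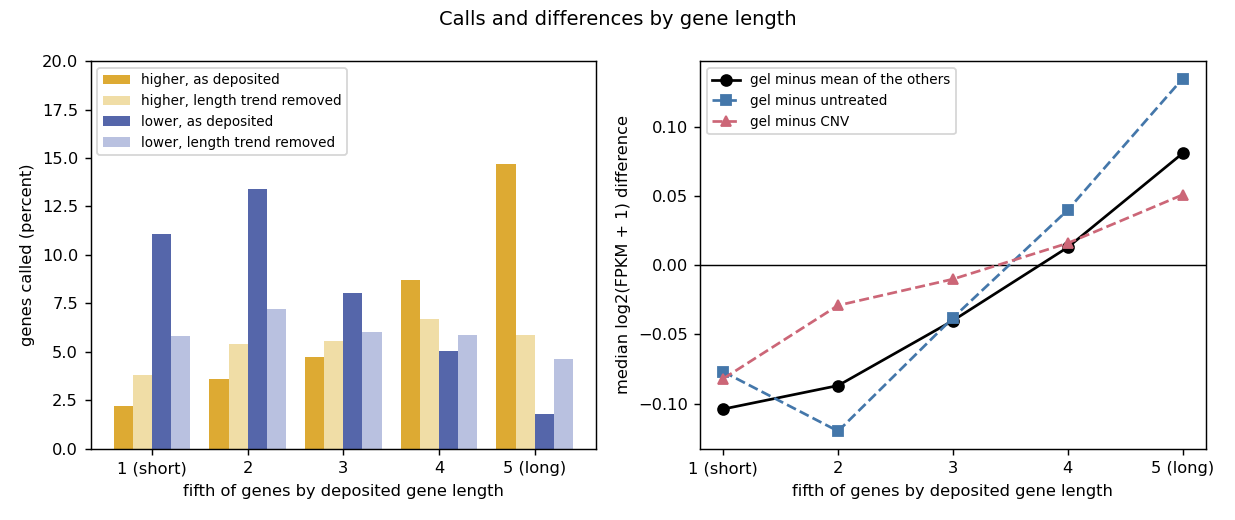
Left, percent of genes called higher or lower in each of 5 classes by gene length, as deposited and with the length trend removed. Right, median log2(FPKM + 1) difference of gel from the average of the others, from untreated and from CNV; the first rises from -0.10 in the shortest to 0.08 in the longest class.

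Genes of antigen presentation by MHC class II, the surface proteins with which dendritic cells, macrophages and B cells show peptides to helper T cells, were higher. Of 7 tested members 4 (57.1%) were higher, against 6.79% of all genes, and none lower, with a median of 0.66. The median difference was 1.05 to untreated and 0.34 to CNV, and CNV itself was above untreated by a median of 0.74. Only 1 of the 7 was called higher in both pairwise comparisons. The summed FPKM of the 9 listed was 430.9 to 502.5 in gel, 462.3 to 482.4 in CNV and 196.8 to 229.2 in untreated libraries, so the sum overlapped between gel and CNV. The starts of H2-Aa (chr17:34287774-34288073, minus strand) and H2-Eb1 (chr17:34305617-34305916, plus strand), the alpha and beta chain genes, are shown because promoters of this family carry a Y box, a site for the factor NF-Y. Capitals mark CCAAT or its reverse complement ATTGG in the same windows of RefSeq, build GRCm38.p6.
H2-Aa: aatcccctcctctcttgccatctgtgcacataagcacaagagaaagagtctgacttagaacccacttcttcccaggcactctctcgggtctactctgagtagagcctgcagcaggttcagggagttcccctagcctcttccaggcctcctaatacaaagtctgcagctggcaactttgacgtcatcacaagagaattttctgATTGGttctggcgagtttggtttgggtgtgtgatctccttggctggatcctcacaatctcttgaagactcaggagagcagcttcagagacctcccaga
H2-Eb1: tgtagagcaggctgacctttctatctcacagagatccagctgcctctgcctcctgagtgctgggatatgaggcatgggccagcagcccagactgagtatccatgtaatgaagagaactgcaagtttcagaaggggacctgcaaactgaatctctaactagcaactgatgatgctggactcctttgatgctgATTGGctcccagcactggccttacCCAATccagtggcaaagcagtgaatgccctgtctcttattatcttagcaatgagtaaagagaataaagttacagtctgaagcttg
H2-Aa held 1 such stretch and H2-Eb1 2. These letters are common, standing in 37.9% of all windows of this length and in 3 of the 5 members with an entry.

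H2-Aa had 27.9, 27.3 and 32.6 FPKM in untreated, 58.3, 37.9 and 63.4 in CNV and 77.3, 65.3 and 76.9 in gel libraries (0.89 ± 0.15, limma adjusted p = 0.01). H2-Eb1 had 36.0 to 42.6, 51.1 to 78.5 and 78.7 to 103 FPKM (0.79 ± 0.14, limma adjusted p = 0.0118). Cd74, the invariant chain that guides class II proteins through the cell, had 64.7 to 78.4, 79.2 to 123 and 141 to 155 FPKM (0.79 ± 0.13, limma adjusted p = 0.00858). Gel libraries were highest for all 3, and CNV libraries lay between gel and untreated. H2-Ab1, the beta chain partner of H2-Aa, was called too but overlapped CNV, with 48.6 to 63.9 FPKM in gel and 33.6 to 57.7 in CNV libraries (0.66 ± 0.15, limma adjusted p = 0.0237). Against CNV alone Cd74 was called (0.53, limma adjusted p = 0.046) and H2-Aa was not (0.48, limma adjusted p = 0.0926). Without gel replicate 3 none of the 4 was called (limma adjusted p = 0.051 to 0.0876), and 3 were without gel replicate 1 or 2.

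Markers of cells that carry class II proteins were measured beside this. Of 15 macrophage and monocyte genes 3 were higher and none lower, and the summed FPKM of the 16 listed was 588 to 739.8 in gel, 260.3 to 286.2 in untreated and 1072 to 1554 in CNV libraries. Of 15 microglia genes 3 were higher and 2 lower, and the 17 listed summed to 641.7 to 773.8 in gel, 1277 to 1647 in untreated and 721.8 to 896 in CNV libraries. Of the 15 tested microglia genes 11 had a positive difference, with medians of 0.67 to untreated and -0.25 to CNV, so the sum did not follow most members. Cx3cr1, a microglial chemokine receptor, had 0.462 to 0.729 FPKM in untreated, 1.48 to 2.14 in CNV and 1.70 to 2.04 in gel libraries (0.43 ± 0.10, limma adjusted p = 0.0252, and 0.0557 to 0.115 without 1 gel library). The summed FPKM of 16 B and plasma cell genes was 55.03 to 69.87 in gel, 42.3 to 48.99 in untreated and 52.84 to 76.55 in CNV libraries. The part of these cells in the class II difference was not tested.

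**Figure D4:**
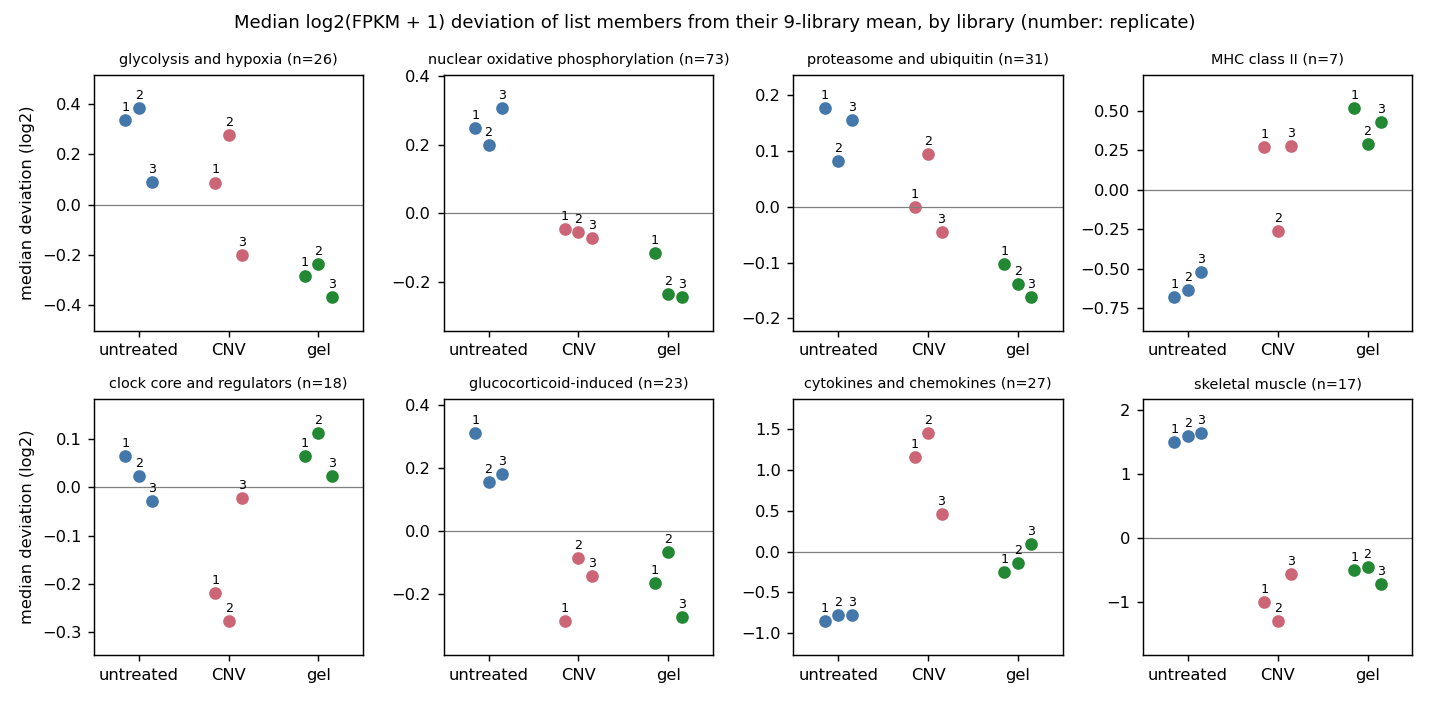
Median deviation of the members of 8 gene lists from their mean over the 9 libraries, on the log2(FPKM + 1) scale, by group, with the replicate number at each point. Glycolysis and hypoxia genes lie at -0.365 to -0.237 in gel libraries and at -0.198 in CNV replicate 3, the lowest of the others.

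Genes of the circadian clock, the feedback loop that sets daily rhythms in most cells, were examined because glucocorticoids act on it and because sampling times are not given. Of 18 genes 4 were higher and none lower, against 6.79% and 7.88% of all genes, with a median of 0.09. In 10 of the 18 the gel mean lay between the other groups, and the median difference was 0.03 to untreated and 0.27 to CNV. Nr1d1 and Nr1d2, the repressors known as REV-ERB, had 37.2 to 40.2 and 23.9 to 24.9 FPKM in gel libraries. In the other 6 libraries they had 19 to 30.5 and 18.2 to 23 FPKM, without overlap (0.61 ± 0.13 and 0.32 ± 0.08, limma adjusted p = 0.0215 and 0.0268). The activator Clock was called too (0.40 ± 0.07, limma adjusted p = 0.0101), with overlap between gel and CNV. Clock was not called with length and GC trends removed. Per2, a repressor of the loop, had 3.81 to 4.42 FPKM in gel and 2.37 to 3.57 in the other libraries (0.33 ± 0.09, limma adjusted p = 0.0394). It was not called with the length trend removed. Its partner Per1 was not called: 12.9 to 14.1 FPKM in untreated, 4.15 to 5.08 in CNV and 5.99 to 8.09 in gel libraries (-0.18 ± 0.09, limma adjusted p = 0.215). Arntl, the partner of Clock, was not called either (0.03 ± 0.09, limma adjusted p = 0.866). Of their output genes, Dbp was not called (0.32 ± 0.13, limma adjusted p = 0.117), Hlf was higher (0.54 ± 0.12, limma adjusted p = 0.0201) and the opposing repressor Nfil3 lower (-0.85 ± 0.21, limma adjusted p = 0.0282). Without gel replicate 3 none of the 4 core genes was called (limma adjusted p = 0.0601 to 0.157). Clock alone was called without gel replicate 1 or 2, and 2 were called without untreated replicate 2 or CNV replicate 1. Hlf was not called without any 1 gel library (limma adjusted p = 0.0546 to 0.0862), nor was Nfil3 (0.0625 to 0.108), which was also lost without untreated replicate 1 or 2 or CNV replicate 1 (0.0539 to 0.0573).

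Genes that glucocorticoids are known to induce were not higher as a group against the average. Of 23 tested, 1 was higher (Errfi1, 4.35%) and 8 were lower (34.8%), against 6.79% and 7.88% of all genes, and the median was -0.18. In 13 of the 23 the gel mean lay between the other groups, and the median difference was -0.42 to untreated and 0.12 to CNV. Errfi1, an inhibitor of the EGF receptor, was not called without gel replicate 2 (limma adjusted p = 0.0548) or 3 (0.0747). Fkbp5, a chaperone partner of the receptor, had 15.8, 13.9 and 14.7 FPKM in untreated, 4.07, 3.18 and 4.16 in CNV and 8.05, 9.13 and 4.92 in gel libraries. Tsc22d3, the mediator known as GILZ, had 58.9 to 71.0, 12.6 to 20.4 and 26.3 to 36.5 FPKM. Both lay between the other groups without overlap and neither was called against the average (-0.09 and -0.08, limma adjusted p = 0.722 and 0.728). Against CNV alone both were higher, by 0.77 and 0.90 (limma adjusted p = 0.0258 and 0.0137), and against untreated both were lower, by -0.95 and -1.06 (limma adjusted p = 0.004 and 0.00187). Pdk4, a kinase that shuts pyruvate out of the mitochondrion and that fasting and glucocorticoids raise, was lowest in gel libraries (chromosome 6, 5483351 to 5496309). It had 13.1, 15.2 and 17.6 FPKM in untreated, 1.19, 1.02 and 1.22 in CNV and 0.861, 0.631 and 0.989 in gel libraries (-1.69 ± 0.10, limma adjusted p = 8.23e-05). Nearly all of it was the step from untreated, since the difference from CNV was -0.24 (limma adjusted p = 0.193). Cebpb, a transcription factor of inflammation and fat metabolism, had 15.5 to 20.1, 19.4 to 32.6 and 10.9 to 12.6 FPKM, lowest in gel (-0.82 ± 0.15, limma adjusted p = 0.0121, and 0.0636 without gel replicate 3). The count of 8 was 4, 2 and 1 without gel replicates 1, 2 and 3. The receptor gene itself, Nr3c1, was higher by 0.25 ± 0.06 (limma adjusted p = 0.0294, and 0.0549 to 0.11 without any 1 gel library, CNV replicate 1 or CNV replicate 2), with 9.59 to 10.4 FPKM in gel, 9.0 to 9.65 in CNV and 6.78 to 7.71 in untreated libraries. It was also not called with division by the FPKM sum or with the length trend removed.

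Cytokine and chemokine genes were mixed, with 10 of 27 lower (37.0%) and 4 higher (14.8%), against 7.88% and 6.79% of all genes. In 1 of the 10, Cxcl2, the gel libraries lay below all others. The rest were called mainly through high CNV values: Cxcl5, another neutrophil attractant, had 1.90 to 2.76 FPKM in untreated, 57.2 to 122 in CNV and 1.64 to 4.04 in gel libraries (-2.25 ± 0.28, limma adjusted p = 0.00373). Its pairwise difference from untreated was -0.00 (limma adjusted p = 0.995). Ppbp, a platelet chemokine, had 0.915 to 2.65, 706 to 1809 and 2.46 to 13.2 FPKM (-3.38 ± 0.51, limma adjusted p = 0.00933), with gel level with or above untreated. Higher were Cxcl13, which attracts B cells, with 3.28 to 3.87 FPKM in gel and 0.431 to 2.68 in the others (0.83 ± 0.16, limma adjusted p = 0.0157, and 0.0716 without gel replicate 3), Ccl5, Ccl8 and Ccl11. Ccl5, Ccl8 and Ccl11 were not called without several single libraries (limma adjusted p up to 0.144), and Ccl8 lay between the other groups. The list median was -0.28 here, 0.14 with limma voom on recovered reads and 0.11 with a pseudocount of 0.1, so no direction is given for the list. Of the 10 lower, 6 and 4 were called without gel replicates 1 and 2. Neutrophil markers had 3 of 9 lower, 33.3% against 7.88% of all genes, and between 1 and 5 with single libraries left out. The summed FPKM of the 14 listed was 43.19 to 172.5 in gel, 41.26 to 62.7 in untreated and 500.3 to 1046 in CNV libraries.

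For vessel growth, Vegfa was not called against the average. It had 5.27 to 6.91 FPKM in untreated, 7.38 to 11.4 in CNV and 5.47 to 6.33 in gel libraries (-0.36 ± 0.13, limma adjusted p = 0.0934). It was lower than in CNV (-0.66, limma adjusted p = 0.025) and against the average it was called without CNV replicate 3 (-0.45, limma adjusted p = 0.00982). Of 19 genes of the list 1 was higher (5.26%) and 4 lower (21.1%), against 6.79% and 7.88% of all genes. Without any 1 gel library or untreated replicate 1 or 2, 1 was lower. The higher one was Flt1, a receptor that binds the growth factor and can act as a decoy, with 1.54 to 1.75 FPKM in gel and 0.629 to 0.955 in the other libraries (0.54 ± 0.08, limma adjusted p = 0.0074). Esm1, a marker of growing vessel tips, had 0.708 to 0.983 FPKM in gel, 1.15 to 1.69 in untreated and 2.82 to 4.92 in CNV libraries (-0.94 ± 0.14, limma adjusted p = 0.00653). Both genes had gel libraries beyond all others, in opposite directions. None of 14 endothelial markers was called by limma, the summed FPKM of the 20 listed was 39.41 to 46.89 in gel and 39.16 to 46.93 in the other libraries, and with limma voom on recovered reads 2 were higher.

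Markers of eye tissues were read for composition. Of 15 pigment epithelium genes 2 were lower, Slc16a8 and Stra6, a share near the 7.88% of all genes, and Rpe65 was not called (limma adjusted p = 0.606). Slc16a8, the lactate carrier of that cell layer, had 31.8 to 32.5 FPKM in untreated, 19.1 to 27.3 in CNV and 14.6 to 19 in gel libraries (-0.74 ± 0.12, limma adjusted p = 0.00752). Stra6, its receptor for vitamin A uptake, had 3.91 to 5.34 FPKM in gel and 6.02 to 8.86 in the others (-0.51 ± 0.11, limma adjusted p = 0.0217, 0.0654 without gel replicate 2 and 0.0983 without 3). The gel libraries were lowest for both. Of 15 genes of ciliary body and iris 5 were lower (33.3%) and 1 higher (6.67%), against 7.88% and 6.79% of all genes. Among the lower was Col9a1, a collagen chain of vitreous and ciliary body, with 0.754 to 0.820 FPKM in gel, 0.952 to 1.06 in CNV and 4.05 to 5.03 in untreated libraries (-0.90 ± 0.08, limma adjusted p = 0.000554). The summed FPKM of the 17 listed was 250.9 to 319 in gel, 358.7 to 430.2 in CNV and 530.6 to 614.1 in untreated libraries, with no overlap.

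Of 17 corneal epithelium genes 3 were higher (17.6%) and 1 lower (5.88%), against 6.79% and 7.88% of all genes. Klf5 and Ehf, transcription factors of surface epithelia, had 36.4 to 38.4 and 61.0 to 66.8 FPKM in gel libraries and 22.3 to 30.1 and 41.4 to 55.3 in the others (0.51 ± 0.10 and 0.41 ± 0.09, limma adjusted p = 0.0138 and 0.0178). They were not called without gel replicate 3 (limma adjusted p = 0.0648 and 0.0862), nor Ehf without gel replicate 2 (0.0515). The 3 higher members became 9 without CNV replicate 3, and 2, 1 and 0 without gel replicates 1, 2 and 3. The summed FPKM of the list had another order, at 23290 to 27610 in untreated, 19330 to 22130 in gel and 12100 to 15730 in CNV libraries. Rod genes had 4 of 24 lower, 16.7% against 7.88% of all genes, and between 1 and 5 with single libraries left out. Their sums were 3362 to 4320 in gel, 6399 to 7384 in untreated and 2548 to 3180 in CNV libraries.

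The class with gel between the others shows what the average can hide. Of 17 skeletal muscle genes 15 (88.2%) were lower against the average, beside 7.88% of all genes. In none did all gel libraries lie below the 6 others, and without gel replicates 2 and 3 the count of 15 was 9 and 4. Myh1, a myosin heavy chain of fast muscle fibres, had 28.3 to 38.0 FPKM in untreated, 2.26 to 3.55 in CNV and 2.31 to 3.05 in gel libraries (-1.58 ± 0.13, limma adjusted p = 0.000529). Acta1, skeletal muscle actin, had 1424 to 1647, 138 to 234 and 172 to 218 FPKM (-1.37 ± 0.17, limma adjusted p = 0.00308). Both were high in untreated libraries alone, and gel and CNV overlapped. Cryge, a crystallin of the lens, had 108, 244 and 1369 FPKM in untreated libraries, was listed at 0 in the CNV libraries and at 0, 0.153 and 0 in the gel libraries (limma adjusted p = 0.0125, and 0.0523 without gel replicate 3). Its near-identical relatives make its reads uncertain, and most lens genes did not share its pattern. Of 22 lens genes 2 were lower (9.09%, near the 7.88% of all genes) and none higher, but 18 had a positive difference. Without untreated replicate 3 limma called 17 higher and 3 lower. The 25 listed lens genes summed to 1453 to 25850 FPKM in untreated, 112.1 to 255.1 in CNV and 1763 to 6297 in gel libraries. Aqp4, the water channel of Müller glia, showed the opposite case, with 2.10 to 2.67 FPKM in untreated, 19.3 to 27.2 in CNV and 2.40 to 3.76 in gel libraries (-1.13 ± 0.13, limma adjusted p = 0.00269).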

How the data were processed

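RNA of 9 flat mounts was extracted with Trizol, selected with poly-T beads and made into libraries with a NEBNext Ultra kit, per the labels' protocols. The authors deposited 1 table of FPKM values with gene lengths. HTSeq 0.6.0 and mm10 are named in the submitters' processing notes; which aligner was used is not stated there. The kit as described does not mark strand, so reads of overlapping genes cannot be told apart. FPKM times gene length came in whole steps for 100% of values (tolerance 0.05), which gave reads per library.

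Values entered as log2(FPKM + 1) after the 1 FPKM filter in 3 libraries. A single limma 3.58.1 model (R 4.3.3, trend and robust options, statmod 1.5.0) gave each group a mean, and the contrast weighted untreated and CNV by 0.5 each. P-values were two-sided and adjusted by Benjamini-Hochberg, threshold 0.05. The joint test took the larger of the 2 pairwise p-values where both differences had 1 sign. Length trends, and in a further alternative GC trends after them, were removed per library by lowess with a span of 30%. Both alternatives were chosen after seeing the data. The model was tested on simulated data. The members and gene lists were chosen with earlier results of these data known. The naming rule took genes called by the joint test, list members with the smallest p, clock and glucocorticoid genes, and called genes with gel between the others; further genes were added after their values were seen. Alternatives covered pseudocount, filters, scaling, weights, grouping, a replicate block, limma voom on recovered reads, and each library left out.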

Additional observations from a re-analysis of the deposited data

How the results depend on the processing

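Without the filter on low values (29374 genes tested), 375 genes were higher and 476 lower, and the joint test called 0 lower. Division by the FPKM sum gave 572 lower. Array weights gave 1649 higher and 1995 lower. With the other 6 libraries as 1 group the counts were 0 and 0, and no joint test was possible there. The replicate numbers did not pair the libraries (same-number correlations of -0.148 to 0.0841), and with a replicate block 668 genes were higher, 892 lower and 0 called lower by the joint test. Leaving out 1 library at a time gave 107 to 1383 higher, 221 to 1553 lower, and 0 to 37 higher and 0 to 12 lower by the joint test. CNV replicate 3 gave each upper end. Genes called in both pairwise comparisons (167 higher, 140 lower) numbered 46 and 38 without the filter, 286 and 118 after quantile normalization, 129 and 58 with division by the FPKM sum, 429 and 328 with array weights, 254 and 152 with limma voom, and 89 and 118 with the replicate block. Other alternatives, library omissions aside, kept these counts, those of the contrast and those of the joint test within 1.5 times. No named gene that was called changed sign in any alternative. With 3 libraries a group, leaving out 1 leaves few degrees of freedom, and reads of 16990118 to 18753737 per library limit genes near 1 FPKM. Causes of these changes were not tested.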

Other observations

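Some genes of cholesterol synthesis, the extracellular matrix and complement were called too. Of 22 genes of cholesterol synthesis and transport 3 were higher in gel libraries and none lower (6.79% and 7.88% of all genes), each with gel above the 6 others. In 12 of the 22 the gel mean lay between the other groups, and the median difference was -0.01 to untreated and 0.28 to CNV. Hmgcs1, an early enzyme of the pathway, had 55.1 to 58.8 FPKM in gel, 42.1 to 54.5 in untreated and 37.4 to 45.6 in CNV libraries (0.34 ± 0.09, limma adjusted p = 0.039). It was not called with length and GC trends removed. Sc5d, a late enzyme, had 35.4 to 37.4 FPKM in gel and 24.2 to 31.1 in the others (0.34 ± 0.08, limma adjusted p = 0.0265). The third was Stard4, a carrier of cholesterol between membranes (0.36 ± 0.08, limma adjusted p = 0.018). None of the 3 was called without gel replicate 1 or 3 (limma adjusted p = 0.0512 to 0.147), and Sc5d and Hmgcs1 were also lost without gel replicate 2 and untreated replicate 2 (0.0512 to 0.0947). Of 30 genes of fibrosis and matrix 7 were lower (23.3%, against 7.88% of all genes) and none higher. In 18 of the 30 the gel mean lay between the other groups, with a median difference of -0.19 to untreated and 0.03 to CNV. None was called lower in both pairwise comparisons, and in 1 of the 7 every gel library lay below the 6 others. The 30 summed to 1238 to 1522 FPKM in gel, 2338 to 2916 in untreated and 1406 to 1695 in CNV libraries. The count of 7 was 1 to 10 with single libraries left out, 1 without gel replicate 2 and 10 without CNV replicate 3. It was 2 with division by the FPKM sum and 2 without the filter on low values. Of 18 complement genes 5 were higher (27.8%, against 6.79% of all genes) and none lower, and in none of these did all gel libraries lie above the 6 others. In 14 of the 18 the gel mean lay between the other groups, with a median difference of 0.72 to untreated and -0.18 to CNV. The 22 listed summed to 500.2 to 568.9 FPKM in gel, 328.5 to 366.5 in untreated and 661.6 to 817.7 in CNV libraries. The count of 5 higher was 3, 2 and 1 without gel replicates 1, 2 and 3.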
